A study of Mus musculus with 97 samples.

Results

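Messenger RNA held by ribosomes of striatal microglia was compared with RNA of the striatum those microglia live in. The microglial side was obtained by TRAP (translating ribosome affinity purification), in which ribosomes carrying a tagged subunit are pulled out of a tissue extract together with the RNA they hold. The comparison rests on 4 libraries chosen by their titles, 2 of striatal microglial TRAP from 9-month-old control mice and 2 of striatum tissue RNA, out of 28 libraries with values in the deposited table and 97 samples in the series. The extract protocol describes tissue RNA as coming from what TRAP left unbound. The names of the tissue libraries, however, hold IN for replicate 1 and UB for replicate 2 in striatum and cerebellum alike, and the labels do not explain these letters, so whether both replicates are the same fraction is not known. All 4 libraries carry the genotype Cx3cr1CreErt2/+(Litt);Eef1a1LSL.eGFPL10a/+;Eedfl/+ on C57BL/6, and the mice had received tamoxifen at 4 to 6 weeks of age. Controls and tissue thus shared a Cre inserted at Cx3cr1, a Cre-dependent eGFP-tagged ribosomal protein L10a at Eef1a1, and 1 floxed allele of Eed, a subunit of Polycomb repressive complex 2. The Cx3cr1 promoter is also active in macrophages at the borders of the brain, so the tag is not limited to microglia by design. The labels do not say whether the 2 replicates of a group came from separate mice, so each p-value speaks only for the spread of these libraries, which may be technical.

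Microglia are the brain's own macrophages. They depend on signals through the CSF1 receptor, and they sense nucleotides, chemokines, complement fragments, antibodies, lipids and microbial products through receptors that other brain cells mostly lack. Many of these receptors signal through a short tyrosine motif, the ITAM, that recruits the kinase SYK, while receptors with an inhibitory motif, the ITIM, recruit phosphatases that oppose it. The striatum itself consists mainly of GABAergic projection neurons, with smaller numbers of interneurons and with astrocytes and oligodendrocytes around them.

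The deposited RPKM scale each gene's reads by its length and by the library's total, so they can be set side by side between genes. Between libraries they are shares of different totals. Genes that take a large share in TRAP lower the RPKM of all others there, so a modest fall is relative to the other genes. The reads behind the RPKM numbered 32128219 and 96474618 in the TRAP libraries and 36854496 and 21489450 in the tissue libraries. Paired values are given in replicate order throughout. Changes are differences in mean log2(RPKM + 1), TRAP minus tissue, so a change of a gene with low RPKM is understated. A gene was called higher or lower at a Benjamini-Hochberg adjusted p under 0.05 in limma, a linear model that shares information on spread across genes. The 4 cerebellar libraries of the same age entered the fit to estimate that spread. With 2 libraries against 2, an exact two-sided permutation test cannot go below p = 0.333, so none was run for single genes.

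Across genes the TRAP libraries correlated at r = 0.959 with each other and the tissue libraries at r = 0.977, while TRAP and tissue libraries correlated at between 0.704 and 0.727. These coefficients are across genes, which are not independent replicates. The library names also differ in form between TRAP and tissue, so fraction and naming group cannot be told apart. The tissue replicates, named with IN and UB, differed in the level of genes that were high in TRAP. Of the 242 genes that were higher in TRAP by at least 4 on the log2 scale, 213 had more RPKM in the first tissue library than in the second, with a median difference of -0.38 on the log2 scale. Among all 14186 genes tested 7934 did so, with a median of -0.038. The tissue libraries of the cerebellum, named in the same way, differed in the same direction, with 202 of the 242 genes higher in the first and a median of -0.26. The part of this difference between tissue libraries in the results was not tested beyond leaving each striatal library out. In a bulk library, fewer cells of a type and less RNA per cell cannot be told apart.

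Of the 14186 genes tested, 2748 (19.4%) were higher in striatal TRAP and 3675 (25.9%) were lower, so that 45.3% were called in either direction, with a median change over all genes of -0.19. These shares of higher and lower genes are the background for each list count below. Each list count covers only the members that reached 1 RPKM in at least 2 of the 8 libraries. A gene could pass that filter through TRAP libraries alone. A change of at least 2 on the log2 scale was called for 999 higher genes (7.04%) and 450 lower genes (3.17%). The lower genes numbered 1902 without the first tissue library and 1990 without the second. The genes called higher took 48.8% and 48.9% of the summed RPKM in the TRAP libraries but 10.3% and 11.4% in the tissue libraries. The 242 genes (1.71%) that were higher by at least 4 on the log2 scale took 18% and 18.3% of the TRAP total and 0.45% and 0.339% of the tissue total. With libraries rescaled by the median ratio over genes, 2891 genes were higher and 3517 lower. The 4 libraries of striatal microglial TRAP from control mice of 3 and 6 months had not entered the test. In all 4 of these, 2557 of the 2748 higher genes (93%) lay above both tissue libraries, as did 240 of the 242 genes with the largest rises (99.2%). Of the 3675 lower genes, 3111 (84.7%) lay below both tissue libraries in all 4. Among all 14186 genes tested, 27.3% lay above and 33.8% below in that way. Among the 7763 genes without a call, 16.9% lay above and 21.6% below. The tissue libraries are the same ones in both comparisons, so these shares are not an independent check.

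The markers of microglia listed to check the label were all among the higher genes, 22 of 22, with a median change of 5.47. The list was chosen with earlier results of these data known, so its count describes the list and tests nothing. P2ry12, the ADP receptor that steers microglial processes, stood at 977 and 965 RPKM in TRAP and at 11.8 and 9.6 RPKM in tissue, a change of 6.38 ± 0.22 (SE, adjusted p = 7.23e-06) and a 90.9-fold ratio of the means. Tmem119, a membrane protein used to tell microglia from other macrophages, stood at 311 and 341 RPKM against 4.32 and 3.52 RPKM. The smallest rise of the 22 was that of Mef2c, a transcription factor that neurons express too, at 137 and 135 RPKM in TRAP and 54.6 and 49.1 RPKM in tissue, a change of 1.38. Summed over the 22 genes, TRAP held 7222 and 7445 RPKM and tissue 243 and 199 RPKM. The groups were far apart, and the first tissue library was the higher of its pair.

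Receptors for growth factors and cytokines were mostly higher in TRAP, and several of their ligands were not. Of 25 such receptors tested, 21 were higher and 1 was lower, with a median change of 2.89. Csf1r, the receptor on which microglial survival depends, stood at 232 and 287 RPKM in TRAP and 5.87 and 4.02 RPKM in tissue, a change of 5.46 ± 0.23 (SE, adjusted p = 7.23e-06). It has a pair of ligands. Il34, which neurons make, stood at 2.32 and 1.83 RPKM in TRAP and 8.17 and 6.89 RPKM in tissue and was lower by a change of -1.47 ± 0.32 (adjusted p = 0.00727), a call lost without the first tissue library (adjusted p = 0.0574). Csf1 stood at 1.96 and 3.39 RPKM in TRAP and 4.17 and 2.65 RPKM in tissue, ranges that overlapped, with a change of -0.27 ± 0.38 (adjusted p = 0.594).

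The fractalkine pair was split in the same direction. Cx3cr1, the receptor, stood at 181 and 170 RPKM in TRAP and 6.33 and 3.72 RPKM in tissue, a change of 4.91 ± 0.37 (SE, adjusted p = 4.82e-05). One of its alleles carries the Cre in all 4 libraries. Cx3cl1, its membrane-bound ligand on neurons, stood at 15 and 13.5 RPKM in TRAP and 79.5 and 73.1 RPKM in tissue, a change of -2.34 ± 0.37 (adjusted p = 0.00158). For TGF-β, a signal that keeps microglia in their resting identity, ligand and receptors were higher together. Tgfbr1 stood at 139 and 147 RPKM against 6.42 and 3.4 RPKM, Tgfbr2 at 27 and 32.2 RPKM against 1.61 and 0.742 RPKM, and Tgfb1 itself at 19.7 and 26.5 RPKM against 0.52 and 0.309 RPKM. Their changes were 4.66, 3.84 and 4.08. The ligands Tgfb2 and Tgfb3 were at or below 2.68 RPKM in each of the 4 libraries and had no call.

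MERTK is a receptor through which phagocytes take up dying cells, with the bridging proteins GAS6 and protein S as its ligands. Mertk stood at 65.7 and 66.1 RPKM in TRAP and 7.71 and 9.76 RPKM in tissue, a change of 2.79 ± 0.22 (SE, adjusted p = 5.38e-05). Pros1, which encodes protein S, stood at 28.6 and 26.2 RPKM against 2.02 and 1.12 RPKM, a change of 3.49 ± 0.31 (adjusted p = 9.32e-05). Gas6 stood at 18.8 and 16.2 RPKM against 11.4 and 10.8 RPKM, and its change of 0.61 ± 0.30 did not pass the test (adjusted p = 0.136). Axl, the sister receptor of Mertk, had 1.64 and 4.37 RPKM in TRAP and 2.68 and 3.62 RPKM in tissue and no call. Among the other receptors, Il6ra rose by 4.78 and Tnfrsf13b, a receptor for B-cell survival factors, by 4.85. Insr, the insulin receptor, was the one receptor lower in TRAP, at 6.37 and 7.71 RPKM against 12 and 11.3 RPKM (change -0.66), and lost its call without the first TRAP library (adjusted p = 0.123), without the first tissue library (0.159) or without the second (0.115).

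**Figure D1:**
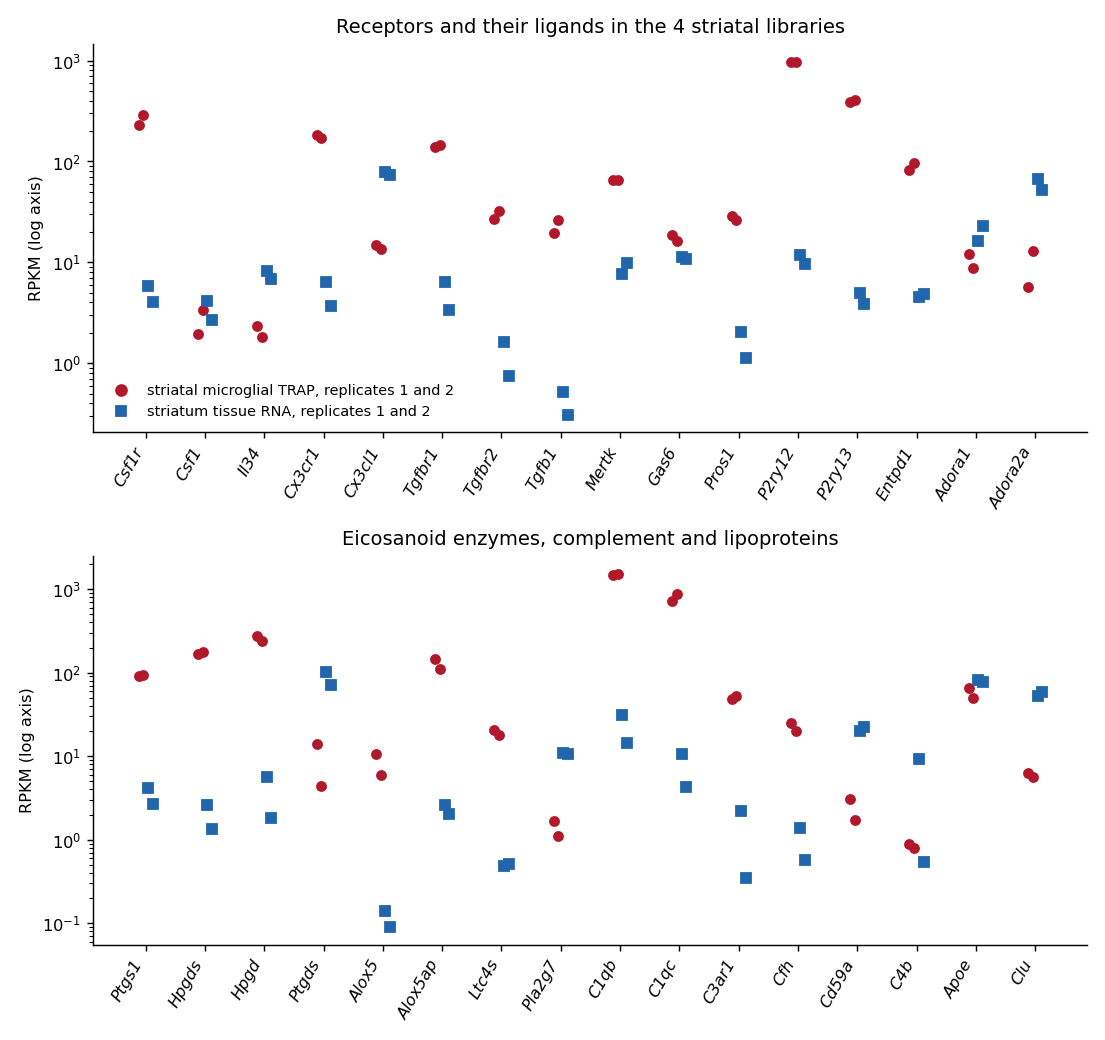
RPKM (log axis) of receptors and ligands (top) and of eicosanoid enzymes, complement and lipoprotein genes (bottom), with 1 red circle for each TRAP library and 1 blue square for each tissue library. Csf1r and Cx3cr1 lie far higher in TRAP (232 and 287, 181 and 170 RPKM), while Cx3cl1, Il34, Ptgds and Clu lie higher in tissue.

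Receptors for nucleotides and adenosine divided within 1 family. Of 12 receptors and ectonucleotidases tested, 6 were higher and 5 lower. The higher ones were P2ry12, P2ry13, P2ry6, P2rx7, Adora3 and Entpd1. P2ry13 stood at 385 and 411 RPKM in TRAP and 4.95 and 3.82 RPKM in tissue, and P2ry6, a UDP receptor tied to phagocytosis, at 61.8 and 67.3 RPKM against 1.65 and 0.576 RPKM. Entpd1 (CD39), the ectoenzyme that removes ATP and ADP, stood at 82.1 and 95.6 RPKM against 4.5 and 4.89 RPKM, a change of 3.98 ± 0.26 (SE, adjusted p = 2.35e-05). The next enzyme of that chain, Nt5e (CD73), which makes adenosine from AMP, stood at 0.356 and 2.11 RPKM against 4.86 and 4.81 RPKM, a change of -1.51, with the call lost without the first tissue library (adjusted p = 0.067) or the second (0.0651). Adora2a, the adenosine receptor of indirect-pathway projection neurons, stood at 5.63 and 12.9 RPKM against 67.6 and 52.3 RPKM and was lower by a change of -2.66 ± 0.36 (adjusted p = 0.000747). Of the 5 lower calls, 5 remained in number without the first TRAP library, 2 without the second, 2 without the first tissue library and 1 without the second.

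Receptors of the G-protein-coupled class for chemokines, complement and lipids were higher in 18 of 19 tested, with a median change of 3.50. Gpr34, a receptor for lysophosphatidylserine, stood at 324 and 355 RPKM in TRAP and 3.44 and 2.38 RPKM in tissue. Gpr84, a receptor for medium-chain fatty acids, stood at 49.2 and 87.3 RPKM against 1.09 and 0.33 RPKM, and C5ar1 at 41.9 and 35.4 RPKM against 0.655 and 0.0543 RPKM. In each of these 3 the groups did not overlap. S1pr1, the sphingosine-1-phosphate receptor abundant in astrocytes, was the exception, at 6.01 and 4.11 RPKM in TRAP and 25.2 and 21.6 RPKM in tissue, a change of -2.03 ± 0.21 (SE, adjusted p = 0.000215). A further 10 receptors of the list, Ccr2 and Cxcr4 among them, lay below the filter of 1 RPKM in at least 2 of the 8 libraries and were not tested.

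The tested genes of the ITAM pathway were mostly higher, from its adaptors to its cytoskeletal effectors. Of 21 adaptors and receptors listed, 7 lay below the filter and were not tested. All 14 tested were higher, with a median change of 4.30. Since genes could pass the filter by being high in TRAP, that count describes the list and tests nothing. Tyrobp (DAP12), the adaptor of TREM2, stood at 1484 and 966 RPKM in TRAP and 25.8 and 11.2 RPKM in tissue, a change of 6.05 ± 0.45 (SE, adjusted p = 4.49e-05). Its partner receptor Trem2 stood far lower, at 36.8 and 39.5 RPKM in TRAP and 1.19 and 0.79 RPKM in tissue. Fcgr3, an activating receptor for antibody, stood at 276 and 261 RPKM against 4.61 and 1.71 RPKM. Summed over all 21 listed genes, TRAP held 3648 and 3207 RPKM and tissue 59.6 and 26.9 RPKM. As a ratio, the sums of the TRAP libraries were thus closer to each other than those of the tissue libraries. As a difference in RPKM they were further apart.

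Of 39 kinases, exchange factors and adaptors that act below these receptors, 34 were higher and 2 lower (1 or 2 with a library left out), with a median change of 3.90. Syk, the kinase that binds phosphorylated ITAMs, stood at 12.5 and 14.7 RPKM in TRAP and 0.368 and 0.303 RPKM in tissue. The Src-family kinase Lyn was the more abundant at 154 and 155 RPKM against 2.81 and 1.09 RPKM. Downstream, the adaptor Lcp2 (SLP-76) stood at 144 and 134 RPKM against 1.83 and 0.918 RPKM, Pik3cg, the catalytic subunit of PI3-kinase gamma, at 88.8 and 73.5 RPKM against 1.41 and 0.58 RPKM, and Nckap1l, the blood-cell subunit of the WAVE actin regulator, at 141 and 149 RPKM against 2.49 and 1.57 RPKM. The smallest rise was that of Elmo1, a partner of DOCK exchange factors, at 189 and 208 RPKM against 106 and 102 RPKM (change 0.92), a call lost without the second tissue library (adjusted p = 0.0508).

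The inhibitory arm was higher as well. Of 14 ITIM receptors and phosphatases tested, 12 were higher and none was lower by limma (1 at an unadjusted p under 0.05, 0 by limma-voom on the reads), with a median change of 3.45. Cd33, a sialic-acid-binding receptor, stood at 288 and 301 RPKM in TRAP and 3.41 and 2.61 RPKM in tissue, and Lair1, a collagen receptor, at 139 and 162 RPKM against 4.29 and 2.92 RPKM. Sirpa, which binds CD47 on other cells and is made by neurons too, had the more modest change of 1.67, at 118 and 104 RPKM against 32.9 and 35.5 RPKM. The phosphatases Ptpn6 (SHP-1) and Inpp5d (SHIP1) rose by 4.07 and 5.00. Ptpn11 (SHP-2), found in most cells, stood at 16.9 and 24.6 RPKM against 27.6 and 31.3 RPKM and had no call (change -0.51, adjusted p = 0.0813).

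SHP-1 and SHP-2 are relatives, and pairs of related genes were compared in 12 families. The pairs were picked after their values had been seen, so their counts describe the pairs and test nothing. The first member was higher in TRAP in 11 of the 12. The relative was lower in 7, higher in 1 and without a call in 4. With the first TRAP, second TRAP, first tissue or second tissue library left out, the lower relatives numbered 4, 5, 4 and 5, while the first member stayed higher in 11 in each case. Wasl, Eif4a2 and Eef1a2 were lower in all of these, and Fermt2, Fyn, Itgb8 and Entpd3 each lost the call in 2 or more. Was, the WASP actin regulator of blood cells, stood at 28.5 and 38.1 RPKM in TRAP and 0.558 and 0.293 RPKM in tissue, while Wasl (N-WASP) stood at 21.6 and 24.2 RPKM against 67.4 and 56.1 RPKM, changes of 4.58 and -1.39. Fermt3, the kindlin of blood cells that activates integrins, stood at 41.8 and 58.9 RPKM against 0.713 and 0.396 RPKM. Its relative Fermt2 stood at 10.4 and 11.3 RPKM against 24.3 and 21.8 RPKM, and its lower call (change -1.02) was lost without the first TRAP library (adjusted p = 0.0591) or the first tissue library (0.0712). Within the TRAP libraries the levels of Was and Wasl lay close together, and within tissue they lay far apart.

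The GTPases RAC2 and RAC1 both rose. Rac2 stood at 54.5 and 63.9 RPKM in TRAP and 1.46 and 0.475 RPKM in tissue, and the widespread Rac1 at 1128 and 1253 RPKM against 358 and 394 RPKM, changes of 4.98 and 1.66. Rac1 was thus the more abundant GTPase in TRAP although its change was the smaller. Among general translation factors, the pairs Eif4a1 with Eif4a2 and Eef1a1 with Eef1a2 had the second gene lower. Eef1a2, the elongation factor of mature neurons and muscle, stood at 10.9 and 10.3 RPKM against 72.3 and 40.5 RPKM, a change of -2.25 ± 0.44 (SE, adjusted p = 0.00419).

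**Figure D2:**
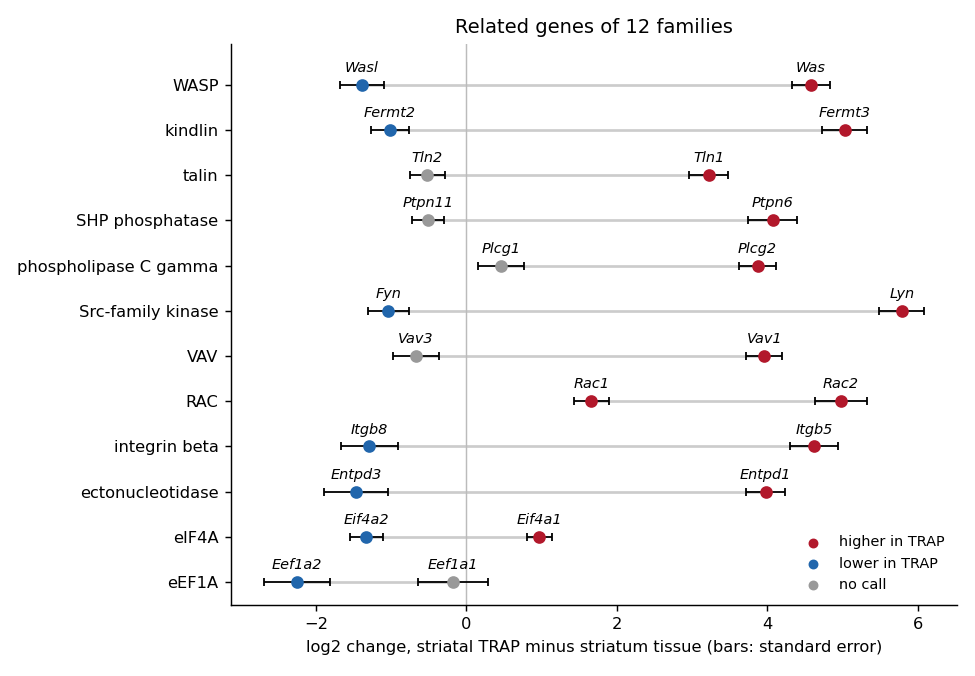
Log2 change, striatal TRAP minus tissue, with its standard error as a bar, for the 2 members of each of 12 families, coloured by call (red higher, blue lower, grey none). The first member is higher in 11 pairs, and the relative is lower in 7, higher only for Rac1 and without a call in 4. With 1 striatal library left out, the lower relatives number 4 or 5.

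Sensors of microbial products and components of the inflammasome were higher in TRAP almost throughout. Of 34 genes tested, 32 were higher and none was lower by limma, by limma-voom or at an unadjusted p under 0.05 (0 in each), with a median change of 3.38. Tlr7, the endosomal sensor of single-stranded RNA, had the highest level of the Toll-like receptors tested, at 60.4 and 71.6 RPKM in TRAP and 1.08 and 0.695 RPKM in tissue. Tlr4, the endotoxin receptor, stood at 13.7 and 13.5 RPKM against 0.308 and 0.126 RPKM, and its co-receptor Ly96 (MD-2) at 83.3 and 128 RPKM against 1.89 and 1.23 RPKM. For the inflammasome, the sensor Nlrp3 stood at 17.5 and 16.1 RPKM, the adaptor Pycard at 87.9 and 67.7 RPKM, Casp1 at 45.2 and 53.4 RPKM and the pore protein Gsdmd at 31.6 and 23.4 RPKM in TRAP, and each was below 2.4 RPKM in both tissue libraries. The product of that route, Il1b, was scarce in both fractions, at 2.12 and 0.924 RPKM against 0.128 and 0.0488 RPKM, with a higher call that was lost without the first tissue library (adjusted p = 0.0876) or the second (0.111), whereas Il1a stood at 35.9 and 44.2 RPKM against 0.976 and 0.141 RPKM.

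Complement genes were higher for the starting protein and the receptors but not for the middle of the cascade. Of 15 tested, 9 were higher and 1 lower. C1qb, a chain of the C1q recognition molecule, stood at 1475 and 1520 RPKM in TRAP and 30.8 and 14.4 RPKM in tissue, a change of 6.08. The receptors C3ar1, at 48.4 and 52.1 RPKM against 2.23 and 0.346 RPKM, and Itgam (CR3 alpha chain), at 125 and 150 RPKM against 2.24 and 1.5 RPKM, were higher too. C3, the central protein of the cascade, had 0.182 and 0.603 RPKM in TRAP and 1.28 and 0.19 RPKM in tissue, overlapping values without a call. C4b had 0.891 and 0.806 RPKM in TRAP but 9.37 and 0.539 RPKM in tissue, so its tissue libraries were among the furthest apart of all genes, and it had no call. Cd59a, an inhibitor of the membrane attack complex, was lower at 3.04 and 1.71 RPKM against 19.9 and 22.6 RPKM, a change of -2.75 ± 0.27 (SE, adjusted p = 0.000172).

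All 6 subunits of the phagocyte NADPH oxidase that were tested were higher, with a median change of 4.69. Another 6 genes of that list lay below the filter and were not tested. The cytosolic subunit Ncf1 stood at 149 and 169 RPKM in TRAP and at 1.99 and 0.939 RPKM in tissue. The catalytic subunit Cybb (NOX2) was the scarcest, at 2.07 and 2.26 RPKM against 0.392 and 0.0481 RPKM, and its call was lost without the second tissue library (adjusted p = 0.0642). The proton channel Hvcn1, which balances charge during the oxidative burst, stood at 23.5 and 33.7 RPKM against 1.55 and 1.29 RPKM. Subunits of one enzyme thus differed widely in level within TRAP, and RPKM is per length.

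Of 54 transcription factors of the myeloid lineage, 43 were higher and 2 lower, with a median change of 2.64. Sfpi1 (the table's symbol for Spi1, which encodes PU.1, the factor that myeloid fate requires) stood at 90.4 and 106 RPKM in TRAP and 2.15 and 0.794 RPKM in tissue, a change of 5.38 ± 0.31 (SE, adjusted p = 1.58e-05). Its partner Irf8 stood at 46.7 and 47 RPKM against 0.977 and 0.719 RPKM, a change of 4.70 ± 0.21 (adjusted p = 7.33e-06). Mef2a, which neurons express too, stood at 234 and 227 RPKM against 70.4 and 72.3 RPKM. Sall1, the factor that sets microglia apart from other macrophages, stood at 172 and 210 RPKM against 6.17 and 4.03 RPKM. All 4 were above their tissue values in both TRAP libraries.

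Other lineage factors followed. Ikzf1 (Ikaros) stood at 164 and 193 RPKM in TRAP and 3.34 and 3.3 RPKM in tissue, Fli1 at 106 and 110 RPKM against 1.84 and 0.928 RPKM, and Runx1 at 53.1 and 55.7 RPKM against 0.821 and 0.334 RPKM. Bhlhe40 and Ets2 were the lower ones, with changes of -1.11 and -0.68. Both calls were lost without the first TRAP library (adjusted p = 0.0535 and 0.0829) and without the first tissue library (0.0744 and 0.118). That of Bhlhe40 was also lost without the second TRAP library (0.0662) and that of Ets2 without the second tissue library (0.0836). Bhlhe41, the close relative of Bhlhe40, was higher by 2.17, at 98.3 and 79.9 RPKM against 18.3 and 19.6 RPKM.

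PU.1 binds DNA at a purine-rich core, and the 8-base form GAGGAAGT (reverse complement ACTTCCTC) was searched on both strands in the 250 bases before each gene start in RefSeq's promoter table, build GRCm38.p6. The motif and the set of genes were chosen after their values were seen. Of the windows of all genes in that table, 802 of 32851 (2.44%) held the motif. It was in 312 of 13455 windows (2.32%) of the genes tested, in 109 of 2804 (3.89%) of the genes higher in TRAP and in 53 of 3468 (1.53%) of the genes lower. For the genes higher by at least 4 on the log2 scale, 189 of 242 had a window, and 26 of their 240 windows (10.8%), of 23 genes, held it. Windows of the same gene can overlap and share a copy of the motif, as for Cttnbp2nl and Sepp1. The related genes Bcl2a1a, Bcl2a1b and Bcl2a1d were counted separately. The windows are thus not separate occurrences. By gene, 23 of 189 held the motif, beside 295 of 10442 among the genes tested. The E-box CACGTG, searched in the same way, was in 8.1% of the windows of all genes tested and in 8.75% of those of the largest rises. A match is a description of the letters and not a site shown to be bound. The windows of 6 listed genes with large changes are printed because they show the motif in different parts of the pathways described here, with the motif in capitals, 5′ to 3′ on the gene's strand.
C1qc: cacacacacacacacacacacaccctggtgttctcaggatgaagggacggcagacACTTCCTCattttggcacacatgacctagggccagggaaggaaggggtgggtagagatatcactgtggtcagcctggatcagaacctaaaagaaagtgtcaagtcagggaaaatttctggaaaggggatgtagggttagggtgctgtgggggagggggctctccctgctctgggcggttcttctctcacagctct
Hpgds: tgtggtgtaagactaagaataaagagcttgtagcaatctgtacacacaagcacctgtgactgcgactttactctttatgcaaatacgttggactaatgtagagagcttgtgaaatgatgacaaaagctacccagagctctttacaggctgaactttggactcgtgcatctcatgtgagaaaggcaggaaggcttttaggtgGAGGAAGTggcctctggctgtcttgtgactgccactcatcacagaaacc
Pik3cg: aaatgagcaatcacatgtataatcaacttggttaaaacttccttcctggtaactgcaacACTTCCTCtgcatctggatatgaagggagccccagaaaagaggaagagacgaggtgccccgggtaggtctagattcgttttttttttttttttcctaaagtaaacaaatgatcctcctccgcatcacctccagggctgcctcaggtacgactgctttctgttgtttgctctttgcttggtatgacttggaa
Inpp5d: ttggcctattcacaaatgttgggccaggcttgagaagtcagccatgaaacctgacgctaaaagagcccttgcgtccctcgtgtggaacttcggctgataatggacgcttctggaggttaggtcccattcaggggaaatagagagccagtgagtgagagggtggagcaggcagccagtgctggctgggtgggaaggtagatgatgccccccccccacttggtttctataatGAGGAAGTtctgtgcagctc
Pycard: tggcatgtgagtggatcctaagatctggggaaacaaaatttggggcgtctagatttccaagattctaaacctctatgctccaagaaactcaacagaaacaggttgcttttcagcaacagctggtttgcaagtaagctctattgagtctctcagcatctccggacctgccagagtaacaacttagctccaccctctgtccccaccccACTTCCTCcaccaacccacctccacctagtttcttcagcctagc
Rasgrp3: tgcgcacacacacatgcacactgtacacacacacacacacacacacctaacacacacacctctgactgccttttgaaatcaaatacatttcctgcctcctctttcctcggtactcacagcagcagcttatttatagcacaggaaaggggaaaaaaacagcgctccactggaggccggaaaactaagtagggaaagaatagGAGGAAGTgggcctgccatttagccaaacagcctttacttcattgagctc

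In the window of C1qc (chr4:136892915-136893164, minus strand), a chain of C1q, the motif lies 195 bases before the gene start, counted from the motif's first base. In that of Pik3cg (chr12:32208471-32208720, minus strand) it lies 191 bases before. In the other 4 it lies within 50 bases of the start. These are Hpgds, prostaglandin D synthase (chr6:65144731-65144980, minus strand), Inpp5d, the phosphatase SHIP1 (chr1:87620062-87620311, plus strand), Pycard, the inflammasome adaptor (chr7:127993868-127994117, minus strand), and Rasgrp3, an exchange factor for RAS (chr17:75435655-75435904, plus strand). The 6 genes changed by 6.65, 5.39, 5.90, 5.00, 4.78 and 4.58 in the order named. The deposited RPKM were made on mm9, and no coordinate was converted between builds.

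Lysosomal genes were higher in 36 of 54 and lower in 3, with a median change of 1.38. Cst3 (cystatin C), a secreted inhibitor of cathepsins, stood at 5935 and 4860 RPKM in TRAP and 312 and 241 RPKM in tissue. Ctss, the cathepsin that trims class II complexes, stood at 2118 and 1571 RPKM against 39.3 and 18.8 RPKM, and Ctsd, the main aspartic cathepsin, at 1362 and 1431 RPKM against 65.4 and 56.8 RPKM. Hexa, a subunit of hexosaminidase, rose by 2.70, at 86.6 and 51.9 RPKM against 9.41 and 9.59 RPKM. The enzymes that did not pass the test included Ids (154 and 171 RPKM against 200 and 175 RPKM), which degrades glycosaminoglycans, and Ppt1 (47 and 45.2 RPKM against 31.7 and 25.6 RPKM), which removes fatty acids from proteins. The lower genes, Ctsk, Mcoln1 and Atp6ap1, were 3 with all libraries, 1 without either TRAP library and 0 without either tissue library.

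For antigen presentation, 19 of 24 genes tested were higher and none was lower by limma, by limma-voom or at an unadjusted p under 0.05 (0 in each), with a median change of 2.25. B2m, the shared light chain of class I molecules, stood at 4740 and 4536 RPKM in TRAP and 124 and 51.5 RPKM in tissue, and the heavy chain H2-D1 at 62 and 60.4 RPKM against 5.51 and 4.06 RPKM. The classical class II chains were scarce in the 4 striatal libraries. H2-Aa stood at 0.768 and 1.24 RPKM in TRAP and 1.04 and 0.0703 RPKM in tissue, and H2-Eb1 at 0.0785 and 0.401 RPKM against 0.73 and 0.196 RPKM, and neither had a call. The 4 TRAP libraries of younger control mice ranged from 1.46 to 31.3 RPKM for H2-Aa. The class II accessory chain H2-DMa was not scarce, at 54.1 and 55.5 RPKM against 11.9 and 8.9 RPKM.

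Eicosanoid enzymes were higher in 10 of 17 tested and lower in 3. Ptgs1 (COX-1), which makes prostaglandin H2, stood at 91.8 and 92.8 RPKM in TRAP and 4.14 and 2.71 RPKM in tissue, a change of 4.42 ± 0.21 (SE, adjusted p = 8.1e-06). A pair of unrelated enzymes turns that product into prostaglandin D2, and they moved in opposite directions. Hpgds, the enzyme of blood cells, stood at 167 and 179 RPKM against 2.64 and 1.35 RPKM, a change of 5.90 ± 0.25 (adjusted p = 7.23e-06). Ptgds, the enzyme of oligodendrocytes and meninges, stood at 14 and 4.41 RPKM against 102 and 72.1 RPKM, a change of -3.27 ± 0.52 (adjusted p = 0.00171). Hpgd, which inactivates prostaglandins, was high too, at 276 and 236 RPKM against 5.71 and 1.84 RPKM. On the leukotriene route Alox5ap stood at 144 and 110 RPKM against 2.64 and 2.06 RPKM and Ltc4s at 20.6 and 17.8 RPKM against 0.479 and 0.506 RPKM.

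Of 37 genes of sterol synthesis and lipoprotein handling tested, 5 were higher and 12 lower, beside 19.4% higher and 25.9% lower among all genes. Their median change was -0.72, beside -0.19 for all genes. Without 1 of the 4 striatal libraries the higher ones numbered 2 to 4 and the lower ones 7 to 13. Cyp46a1, the neuronal enzyme that clears cholesterol from the brain, stood at 5.77 and 8.24 RPKM in TRAP and 32.5 and 41.4 RPKM in tissue. Clu, an astrocyte apolipoprotein, stood at 6.27 and 5.69 RPKM against 52 and 58.4 RPKM, a change of -3.01 ± 0.18 (SE, adjusted p = 1.8e-05). Apoe did not differ in that way, at 65 and 49.9 RPKM against 80.8 and 78 RPKM (change -0.47, adjusted p = 0.0927). The higher genes were the lipase Lipa, the lipid-droplet coat Plin2, the exporter Abca1, the esterifying enzyme Soat1 and the receptor Nr1h2. The calls of Lipa and Plin2 held with each library left out. Those of Abca1, Soat1 and Nr1h2 were lost without the second TRAP library (adjusted p = 0.115, 0.0871 and 0.0771) and without the second tissue library (0.155, 0.272 and 0.0959), that of Soat1 also without the first TRAP library (0.167) and that of Nr1h2 without the first tissue library (0.0929).

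Cytokines and chemokines were higher in 17 of 40 tested and lower in 7, and the lower ones numbered 6, 4, 3 and 4 with each striatal library left out in turn. Among all genes 19.4% were higher and 25.9% lower, so the 7 lower ones were no larger a share than among all genes. Ccl12 stood at 83.9 and 108 RPKM in TRAP and 1.47 and 0.26 RPKM in tissue, and Ccl3 at 29.3 and 27.4 RPKM against 3.58 and 0.0607 RPKM. Il33, an alarmin of astrocytes and oligodendrocytes, was lower at 10.3 and 12.2 RPKM against 78.5 and 36.2 RPKM. Igf1 had 1.72 and 2.53 RPKM against 1.08 and 0.577 RPKM and no call. Several chemokines were spread within TRAP, such as Ccl5 at 0.778 and 6.91 RPKM and Cxcl9 at 0.257 and 3.74 RPKM, and had no call.

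Of 23 integrins and adhesion partners, 13 were higher and 2 lower, beside 19.4% and 25.9% of all genes. The lower ones numbered 0 without the first TRAP or the first tissue library and 2 without either of the others, and Itgb8, 1 of the 2, had an adjusted p of 0.072 without the first TRAP library, 0.106 without the second and 0.166 without the first tissue library. Itgb5, the beta chain that pairs with alpha V, stood at 100 and 87 RPKM in TRAP and 3.12 and 2.6 RPKM in tissue, while that partner, Itgav, stood at 8.1 and 8.27 RPKM against 10 and 8.08 RPKM and had no call. Channels and transporters were higher in 18 of 30 and lower in 2 (1 with any 1 striatal library left out). The same shares of all genes stand beside these counts. Kcnk13 (THIK-1), a potassium channel described as the resting conductance of microglia, was no higher in TRAP by the test, at 3.32 and 2.84 RPKM against 3.19 and 2.32 RPKM. Kcnk6, a channel of the same family, was higher by 3.88, at 16.5 and 21.7 RPKM against 0.517 and 0.213 RPKM. The organic anion transporter Slco2b1 stood at 55.9 and 56.1 RPKM against 1.98 and 0.73 RPKM.

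Genes known to rise in disease-associated microglia were mixed, with 16 of 26 higher, 3 lower and 7 without a call. Among all genes 19.4% were higher and 25.9% lower. The lower ones numbered 3, 0, 1 and 1 with each striatal library left out in turn. Among the higher ones were B2m, Ctsd and Cd68 (291 and 318 RPKM against 14.2 and 10 RPKM). Itgax stood at 1.08 and 0.492 RPKM in TRAP and Lgals3 at 1.47 and 0.625 RPKM, both without a call. Spp1, at 5.12 and 3.23 RPKM against 10.3 and 6.69 RPKM, and Lpl, at 3.68 and 2.4 RPKM against 5.81 and 9.53 RPKM, were lower, with calls lost without the second TRAP library (adjusted p = 0.196 and 0.141). The call of Spp1 was also lost without either tissue library (0.266 and 0.0503) and that of Lpl without the second (0.209). Interferon-response genes were higher in 13 of 22 by limma and in 10 by limma-voom, with a median change of 1.82. Fewer of them were higher with any 1 striatal library left out. None was lower by limma, by limma-voom or at an unadjusted p under 0.05 (0 in each). Bst2 rose by 3.42, at 16.9 and 16.4 RPKM against 1.31 and 0.183 RPKM, whereas Ifit3 overlapped, at 2.76 and 2.07 RPKM against 3.75 and 0.613 RPKM.

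The Cre that switches on the tag also acts on floxed alleles. Whether 1 copy of Eed was deleted in tagged cells was not tested. Eed, with 1 floxed allele in every library compared, stood at 22.3 and 13.4 RPKM in TRAP and 6.32 and 8.16 RPKM in tissue, a change of 1.16 ± 0.29 (SE, adjusted p = 0.0136). Its call was lost without the first TRAP library (adjusted p = 0.085) or the first tissue library (0.0877). Among the other members of Polycomb repressive complex 2, Suz12 stood at 31.5 and 31.3 RPKM against 17.9 and 17.7 RPKM, a change of 0.79 ± 0.16 (adjusted p = 0.00457). Ezh2, the methyltransferase of dividing cells, stood at 1.9 and 2.4 RPKM against 3.4 and 3.85 RPKM without a call (change -0.56, adjusted p = 0.106). Ezh1, its counterpart in cells that do not divide, stood at 11.8 and 11.1 RPKM against 10.7 and 8.29 RPKM, also without a call. Of the 2 enzymes that remove the same mark, Kdm6a stood at 26.9 and 35.3 RPKM against 13.6 and 12.2 RPKM and Kdm6b at 19.5 and 51.2 RPKM against 4.76 and 3.66 RPKM, and both were higher. The complex and the demethylases together had 6 of 12 tested genes higher and 1 lower, beside 19.4% and 25.9% of all genes. With 1 striatal library left out, 4 or 5 were higher and 0 lower.

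Lists made by class of RNA, and not by cell type, were compared as well. Whether their members differ between cell types was not tested. Of 67 nuclear-encoded respiratory chain genes, 26 were lower and none was higher by limma (1 at an unadjusted p under 0.05, 0 by limma-voom). Among all genes 25.9% were lower and 19.4% higher. The list's median change was -0.57, beside -0.19 for all genes. The lower ones numbered 32, 10, 13 and 11 with the first TRAP, second TRAP, first tissue and second tissue library left out, and 1 gene was then higher without the first TRAP library. Cox4i1, a core subunit of cytochrome oxidase, stood at 187 and 168 RPKM in TRAP and 383 and 368 RPKM in tissue. Of 12 long noncoding RNAs, 5 were lower by limma, beside 25.9% of all genes. None was higher by limma, by limma-voom or at an unadjusted p under 0.05 (0 in each). Malat1, which stays in the nucleus, stood at 633 and 908 RPKM against 3605 and 2994 RPKM, and Meg3 at 27.5 and 24.7 RPKM against 110 and 152 RPKM. Tug1 did not pass the test, at 47 and 40.4 RPKM against 56.8 and 50.9 RPKM. The 13 messenger RNAs encoded in mitochondria are listed at 0 in each library, so nothing can be said of them.

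Of 30 translation factors, 4 were higher and 3 lower, beside 19.4% and 25.9% of all genes, with a median change of 0.12. The higher ones numbered 2 and the lower ones 2 without either TRAP library or the first tissue library, and 4 and 2 without the second tissue library. Rpl10a, the gene of the tagged ribosomal protein, had a change of -0.043 (adjusted p = 0.895). Eef1a1, the locus that carries the tag, stood at 267 and 317 RPKM in TRAP and 494 and 221 RPKM in tissue, so its tissue libraries lay on both sides of TRAP (change -0.18, adjusted p = 0.779).

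**Figure D3:**
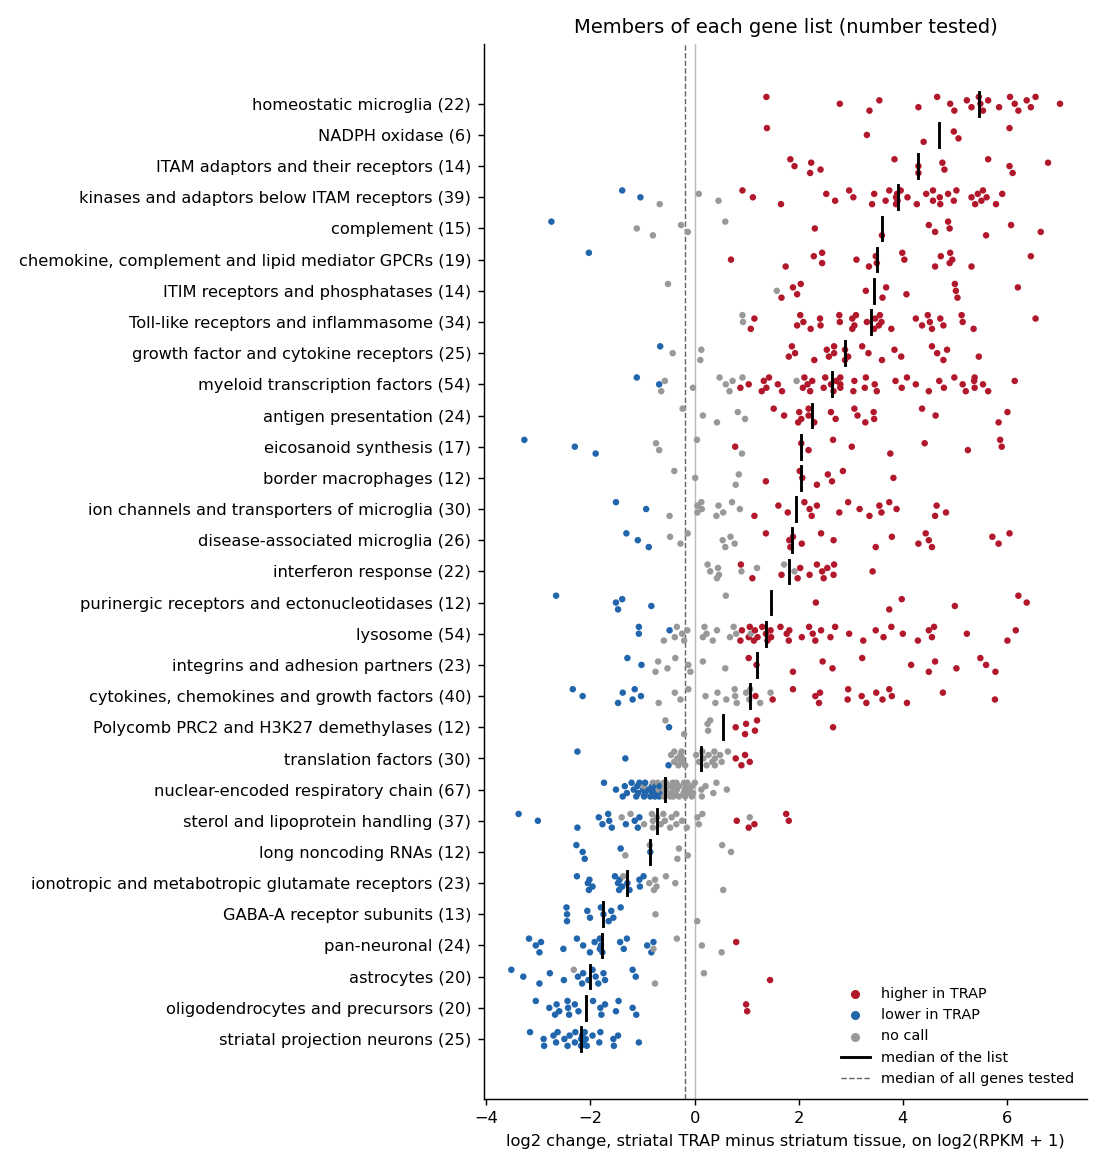
Log2 change, striatal TRAP minus tissue, of the tested members of the gene lists, 1 point a gene coloured by call, with the list's median as a black bar and the median of all genes (-0.19) as a dashed line. The medians run from 5.47 for microglial markers to -2.18 for genes of projection neurons.

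Genes of the other cells of the striatum were lower but not gone. All 25 projection-neuron genes tested were lower, with a median change of -2.18, and 19 of 24 genes common to neurons were lower and 1 higher. Fewer of the genes common to neurons were lower with any 1 striatal library left out. Ppp1r1b (DARPP-32), the phosphatase inhibitor of projection neurons, stood at 50.8 and 67.4 RPKM in TRAP and 583 and 484 RPKM in tissue, a change of -3.16 ± 0.28 (SE, adjusted p = 8.96e-05). Penk, the enkephalin precursor, stood at 107 and 113 RPKM against 581 and 507 RPKM. Summed over all 26 listed genes, TRAP held 686 and 851 RPKM and tissue 3476 and 3635 RPKM. Thus RNA typical of projection neurons remained in TRAP at levels above those of many microglial receptors, for example above the 36.8 and 39.5 RPKM of Trem2 in the case of Penk. The part of such RNA in other changes was not tested.

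Astrocyte genes were lower in 16 of 20, with summed levels of 735 and 765 RPKM in TRAP and 1190 and 1326 RPKM in tissue, and oligodendrocyte genes in 18 of 20, with 272 and 265 RPKM against 1390 and 1207 RPKM. Most of the astrocyte sum in TRAP came from 1 gene. Glul, glutamine synthetase, stood at 487 and 554 RPKM in TRAP and 216 and 167 RPKM in tissue and was higher by 1.45 ± 0.28 (SE, adjusted p = 0.00414). Gfap had 2.34 and 2.22 RPKM in TRAP but 40.8 and 5.37 RPKM in tissue, and with tissue libraries so far apart it had no call. Of the oligodendrocyte list, Trf and Cspg4 were higher, by 1.01 and 0.99, and both calls were lost without the second tissue library (adjusted p = 0.122 and 0.169), that of Trf also without the first TRAP library (0.0881) and that of Cspg4 without the first tissue library (0.121). Nefl, the light neurofilament, was the neuronal gene that was higher, at 255 and 215 RPKM against 124 and 145 RPKM (change 0.80), and its call was lost without the first tissue library (adjusted p = 0.0682).

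Receptors for the transmitters of the striatum followed the neurons. Of 23 glutamate receptor genes, 15 were lower, and of 13 GABA-A subunits, 11 were lower. Fewer of the glutamate receptor genes were lower with any 1 striatal library left out. No member of either list was higher by limma, by limma-voom or at an unadjusted p under 0.05 (0 in each). Gria2, the AMPA receptor subunit that limits calcium entry, stood at 36.2 and 30.9 RPKM in TRAP and 127 and 152 RPKM in tissue, and Gabra4, a GABA-A alpha subunit, at 9.3 and 9.27 RPKM against 56 and 54.8 RPKM. Genes of interneurons and dopamine terminals were lower in 9 of 11, a number that was 3 to 6 with 1 striatal library left out. Sst, the somatostatin gene, had 69.3 and 84 RPKM against 115 and 235 RPKM and no call.

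Markers of border macrophages were higher in 8 of 12 tested, but at low levels. Their sum was 85.3 and 49.4 RPKM in TRAP and 6.11 and 5.27 RPKM in tissue, beside 7222 and 7445 RPKM for the microglial markers in TRAP. Mrc1 (CD206) stood at 7.31 and 5.43 RPKM against 0.224 and 0.258 RPKM, and Cd163, another scavenger receptor, at 2.63 and 1.44 RPKM against 2.86 and 2.94 RPKM without a call. Of 20 genes of monocytes, neutrophils, lymphocytes and red cells, 16 lay below the filter. Of 15 endothelial genes 10 did, among them Cldn5, Cdh5 and Tek. The immediate early and heat shock genes, which rise during tissue handling, had 5 of 20 higher and 5 lower, shares close to the 19.4% and 25.9% of all genes. The lower ones numbered 3 without the first tissue library. Jun stood at 30.2 and 27.4 RPKM against 6.63 and 4.89 RPKM, while Fos stood at 0.476 and 0.489 RPKM in TRAP and 2.42 and 0.218 RPKM in tissue.

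**Figure D4:**
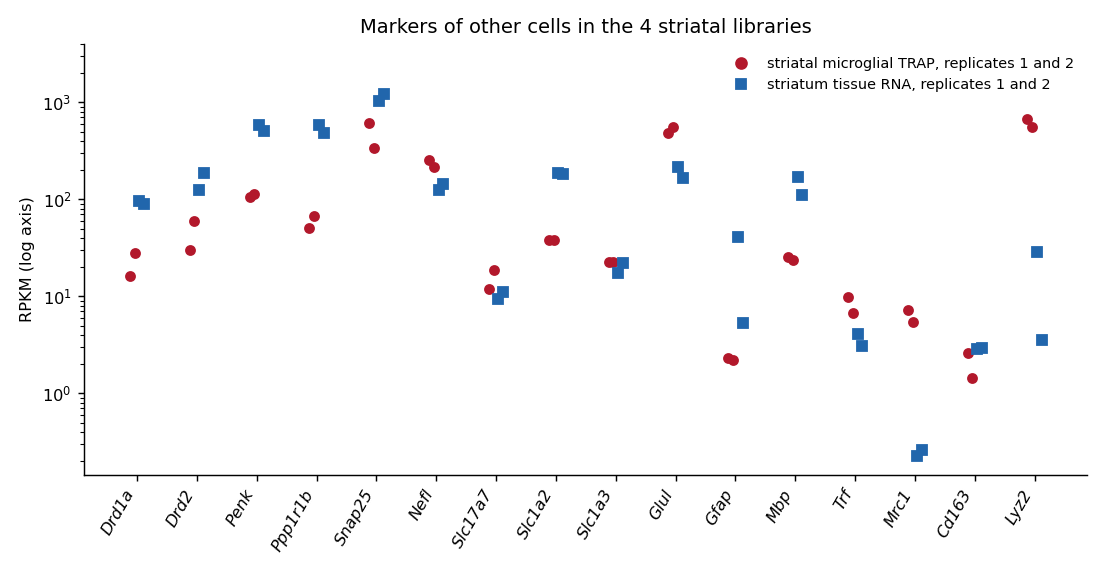
RPKM (log axis) of markers of neurons, astrocytes, oligodendrocytes and border macrophages and of Lyz2, with 1 red circle for each TRAP library and 1 blue square for each tissue library. Penk and Ppp1r1b lie higher in tissue, Glul and Nefl higher in TRAP, and the tissue libraries lie far apart for Gfap (40.8 and 5.37 RPKM) and Lyz2 (28.7 and 3.54 RPKM).

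The same contrast in the cerebellum, with 2 TRAP libraries and 2 tissue libraries of the same age and genotype, allowed a test of whether the change differed between regions. By limma, 575 genes of 14186 (4.05%) differed, 244 (1.72%) with the larger value of the change in striatum and 331 (2.33%) with the larger value of the change in cerebellum. That count is fragile, since it fell to 0 with any 1 of the 4 striatal libraries left out, although between 2171 and 3170 genes then had an unadjusted p under 0.05 (3474 with all 8 libraries). It also fell to 0 with the replicate number of each region as a block (3137 at an unadjusted p under 0.05). The names of the TRAP libraries start with a number that a striatal and a cerebellar library share, the same one for both libraries of a replicate number, and the labels do not say what it stands for. The deviations of TRAP libraries with the same number correlated at 0.06 between regions. The count was 32 in a model with a term for the shared deviation of same-numbered tissue libraries, chosen after seeing the data. Single genes are therefore given as values. Clu fell by 3.01 in striatum and by 0.80 in cerebellum, and Apoe changed by -0.47 in striatum and 1.67 in cerebellum. H2-Aa changed by 0.43 in striatum, and by 4.70 in cerebellum, a difference of -4.27. Adora2a and Drd1a, genes of striatal projection neurons, fell by 2.66 and 2.07 in striatum and changed by -0.14 and -0.11 in cerebellum, where neither reached 0.2 RPKM. By limma-voom these last differences between regions had the opposite sign, at 2.02 and 2.25, and did not pass the test (adjusted p = 0.545 and 0.475).

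**Figure D5:**
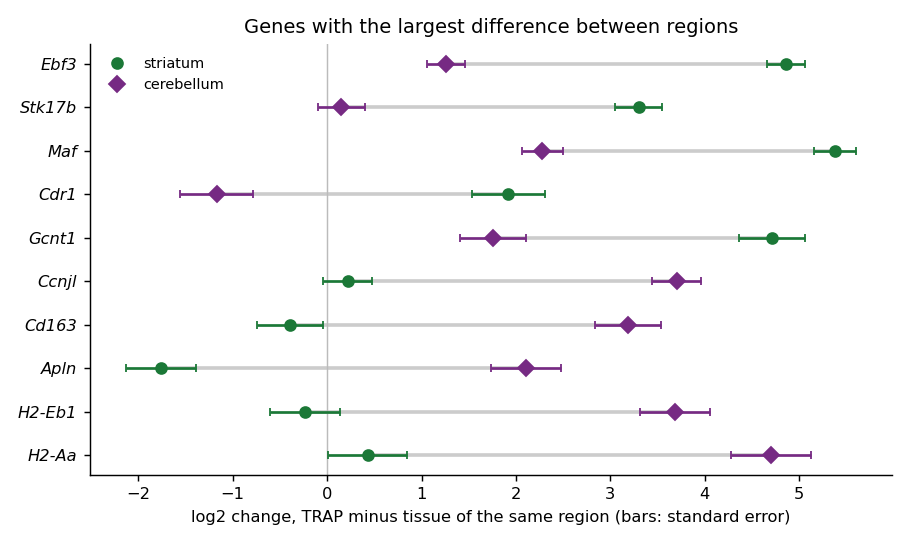
Log2 change, TRAP minus tissue of the same region, in striatum (green circles) and cerebellum (purple diamonds), with standard errors as bars, for the 5 genes with the largest difference between regions in each direction. Ebf3 and Maf lie higher in striatum (4.86 and 5.38) than in cerebellum (1.26 and 2.28), and H2-Aa lies lower (0.43 against 4.70).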

How the data were processed

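RNA was sequenced as single reads of 75 cycles on an Illumina NextSeq after Nugen Ovation V2 amplification, per the labels' protocols. The authors deposited 1 table of RPKM per gene and library. Per the submitters' processing notes, bcl2fastq, TopHat2 2.1.0, HTSeq 0.6.0, DESeq2 and the build mm9 were used, with no roles given, and gene lengths and strand handling are not given in the sources used here. All 32861 rows above 0 came out as whole multiples of 1 read within 0.0001, which gave the depth of each library, and these reads served 1 alternative test.

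Genes that reached 1 RPKM in 2 or more of 8 libraries were tested on log2(RPKM + 1) with limma 3.58.1 in R 4.3.3 (empirical Bayes with intensity trend, two-sided), with striatal and cerebellar TRAP of control mice and both tissues at 9 months as groups. The fit was checked on simulated data in which libraries varied independently. That check cannot speak for deviations that tissue libraries share, so it does not establish the error rate in these data. Adjusted p-values are Benjamini-Hochberg values over all genes tested. The counts of calls among 38 gene lists are given without a test of the list.

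The members, gene lists and motif were chosen with earlier results of these data known. Genes named were the 12 largest rises and falls with a mean of at least 5 RPKM, up to 3 called members a direction and 2 uncalled members of each list, members against their list's direction, a fixed set (Eed, its partners and main receptors and markers) and the 5 largest region differences each way. All other genes named in the text were added after their values were seen. Symbols are those of the table, and some genes are not reported here. Overlapping and antisense genes cannot be told apart without strand, and genes with near-identical copies are uncertain.

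The labels do not say whether the same replicate numbers pair TRAP and tissue, and the main fit did not pair them. Deviations from the group means of same-numbered libraries correlated at -0.02 in striatum and 0.02 in cerebellum, but at 0.57 between the tissue libraries of both regions. With 2 libraries a group, such coefficients cannot decide whether TRAP and tissue are paired. Alternatives covered the pseudocount, filter, scaling, trend, libraries fitted, replicate block, limma-voom and each library left out.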

Additional observations from a re-analysis of the deposited data

Results flagged for a closer look

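The change between TRAP and tissue differed between striatum and cerebellum for these named genes by limma (adjusted p under 0.05 over 14186 genes), given as the striatal minus the cerebellar change on the log2 scale. A larger value here means a larger TRAP minus tissue change, which also depends on each region's tissue level. It does not mean a higher TRAP level. The count of such genes fell to 0 with any 1 striatal library left out, so each value rests on all 4, and to 0 with the replicate number as a block. Genes with the larger value in striatum were Ebf3 (3.60), Stk17b (3.15), Maf (3.10), Cdr1 (3.09), Gcnt1 (2.96), Lyn (2.69), Clic1 (2.38), Sparc (2.29), Fermt3 (2.06) and Jun (1.72).

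Among genes of macrophages and antigen presentation with the larger value in cerebellum were H2-Aa (-4.27), H2-Eb1 (-3.90), H2-DMa (-2.34), Cd163 (-3.58), Pf4 (-2.91), Arhgdib (-2.12) and Apoe (-2.14). H2-Aa stood at 39.3 and 59.1 RPKM in cerebellar TRAP and at 1.5 and 0.44 RPKM in cerebellum tissue, against 0.768 and 1.24 RPKM in striatal TRAP. Arhgdib was the other way round in TRAP, at 227 and 180 RPKM in cerebellum and 425 and 430 RPKM in striatum. Its tissue levels were 3.66 and 1.63 RPKM in cerebellum and 31.1 and 30.9 RPKM in striatum. Genes of neurons and other glia with the larger value in cerebellum were Adora2a (-2.52), Drd1a (-1.96), Slc5a7 (-2.16), Arpp19 (-2.19), Gad2 (-1.46), Calb1 (-1.59), Clu (-2.20) and Mal (-2.28). The others were Apln (-3.87), Ccnjl (-3.48), Kcnj2 (-2.72), Timp2 (-1.61) and Spop (-1.39). Kcnj2 stood at 23.9 and 16.2 RPKM in striatal TRAP and 16.5 and 12.4 RPKM in cerebellar TRAP. In tissue it stood at 17 and 18.6 RPKM in striatum and 1.3 and 0.942 RPKM in cerebellum.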

How the results depend on the processing

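The numbers of higher and lower genes stayed within 1.5 times 2748 and 3675 in each alternative except 2 that leave out a library. With 1 striatal library left out the higher genes numbered 1906 to 2269 and the lower genes 1902 to 2842, and the region difference gave 0 genes in each case (0 to 0). In the 16 alternatives none of the 6423 called genes was called in the opposite direction, and 168 of 224 called genes named kept their call throughout. The median change of all genes ran from -0.31 by limma-voom to -0.06 with no filter. The count of 575 genes that differed between regions was 328 with a pseudocount of 0.1, 1089 with a pseudocount of 5 and 1203 with TRAP of 3, 6 and 9 months. In the fit with the replicate block, 2604 genes were higher, 3378 lower and 0 differed between regions (3137 at an unadjusted p under 0.05). With the tissue replicate block shared by both regions, chosen after seeing the data, 2345 were higher, 3008 lower and 32 differed. Fewer residual degrees of freedom go with the block and with each library left out, and a lone library was then assumed to vary like the other groups.

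Some values changed sign, and the cause was not tested. By limma-voom the region differences of Adora2a, Slc5a7 and Drd1a were 2.02, 2.23 and 2.25. Ttr changed by 0.02 with TRAP of 3 ages. With 1 striatal library left out Dlk1 ranged from -1.71 (without the second TRAP library) to 1.75 and Lipt2 from -1.17 (without the same one) to 1.29. Medians of 4 of 38 lists changed sign, to -0.01 for complement with no filter, -0.06 for translation factors without the first TRAP library (up to 0.21 without the second), 0.19 for endothelial genes with TRAP of 3 ages and 0.04 for immediate early genes without the first tissue library (-0.54 without the second TRAP library). Depth, at 21489450 reads in the shallowest striatal library, limits genes near 1 RPKM most.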
